A study of Mus musculus with 4 samples.

Results

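The retinol dehydrogenase cluster of mouse chromosome 10 holds genes of the short-chain dehydrogenase family, and 7 genes were followed here: Rdh16, Rdh9, Rdh7, Rdh5, Sdr9c7, Hsd17b6 and BC089597, a gene listed with them. They were found by gene name in the deposited liver mRNA-seq tables and make up 7 of 8797 genes. All 7 are among the 3632 genes with a B6-allele frequency in all 4 mice. The genes were selected on values already known from these mice, because Rdh16 and Sdr9c7 were read almost wholly from the B6 allele. Their allele use is therefore given as a description without a test. Livers came from female F1 hybrids of the inbred strains C57BL/6J (B6) and MSM/Ms (MSM) at 5 months of age. Reciprocal crosses gave 2 mice each. MB1 and MB2 had an MSM mother and a B6 father, BM1 and BM2 had the parents exchanged, and all 4 mice carry 1 chromosome set of each strain. The labels name no treatment and do not say whether mice of a cross shared a litter, so p-values measure the spread between these mice.

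Short-chain dehydrogenases use NAD or NADP to move hydrogen between an alcohol and a ketone or an aldehyde. The retinol dehydrogenases of the family turn retinol into retinaldehyde, the step before retinoic acid, and several of them also oxidize androgens and other hydroxysteroids. Liver is the main store of vitamin A and a main site of steroid breakdown, and genes of this family lie side by side as copies that arose by duplication.

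Each library gave 2 values for each gene. FPKM is the number of mapped fragments scaled to transcript length and library size, so FPKM levels of different genes can be set side by side. The B6-allele frequency is the share of B6 reads among the reads that could be assigned to an allele, where 0.5 means equal use. The tables hold no read counts. The depth behind a value is thus unknown, and a single frequency carries no interval. The median frequency over genes was 0.509 to 0.512 in the 4 libraries. Hepatocyte markers were high, with a summed FPKM of 11780 to 16620 for the 4 of 5 listed markers that were measured. The summed FPKM of stellate cell markers (3 of 5 measured) was 41.8 to 51.8, of sinusoidal endothelium (5 of 5) 99.2 to 119, of Kupffer cells (3 of 5) 95.4 to 133, and Spp1, the single measured cholangiocyte marker of 5, was at 9.51 to 14.6.

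The block of neighboring members, with ends set by the choice of members, spans 231.2 kb of the mm10 assembly. It runs from Rdh9 (chr10:127776386-127792697, plus strand) through Rdh16 (chr10:127801152-127846565, plus), Rdh7 (chr10:127884028-127888817, minus) and Sdr9c7 (chr10:127898518-127911761, plus) to Hsd17b6 (chr10:127990936-128007611, minus). Rdh1, which is no member, ends shortly before Rdh9, and their coding sequences are 92.1% identical. It is counted below among the other genes of the region. Rdh5 (chr10:128913593-128922888, minus) lies 906.0 kb beyond this block, with 35 measured genes in between. BC089597 could not be matched to the annotation used here and is given without a position. The upstream sequences of 4 block genes are shown because they set the pair with near-complete B6 use, Rdh16 and Sdr9c7, beside Rdh9 and Hsd17b6, block genes next to them with both alleles in use. They are the 150 bases before the RefSeq start site in the B6 reference (GRCm38.p6, the assembly called mm10), or before the start nearest to that of the gene span above where RefSeq gives 2 (Hsd17b6 and Rdh7), written 5′ to 3′ on the strand of the gene. Capitals mark the letters TATAAA, a motif chosen after the values were seen. The windows are chr10:127801003-127801152 for Rdh16, chr10:127898385-127898534 for Sdr9c7, chr10:127776255-127776404 for Rdh9 and chr10:128007612-128007761 for Hsd17b6. Annotations place starts differently, so the last 19 bases for Rdh9, 17 for Sdr9c7 and 1 for Rdh16 lie inside the gene spans above.
Rdh16: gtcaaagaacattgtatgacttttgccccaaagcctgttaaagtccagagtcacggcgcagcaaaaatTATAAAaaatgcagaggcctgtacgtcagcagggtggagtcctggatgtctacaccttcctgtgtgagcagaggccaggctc
Sdr9c7: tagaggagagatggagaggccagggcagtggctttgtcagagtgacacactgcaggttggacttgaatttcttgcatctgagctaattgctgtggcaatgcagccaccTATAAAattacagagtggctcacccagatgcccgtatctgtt
Rdh9: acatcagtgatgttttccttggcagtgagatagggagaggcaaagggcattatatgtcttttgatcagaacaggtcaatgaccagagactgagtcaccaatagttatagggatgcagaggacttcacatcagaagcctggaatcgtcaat
Hsd17b6: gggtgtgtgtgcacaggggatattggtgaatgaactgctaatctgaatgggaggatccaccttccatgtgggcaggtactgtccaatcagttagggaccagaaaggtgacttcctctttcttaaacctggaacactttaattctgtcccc
TATAAA began 82 bases before the start of Rdh16 and 42 bases before that of Sdr9c7. It was in neither orientation in the windows of Rdh9, Rdh7, Hsd17b6 and Rdh5, with both starts of Rdh7 and of Hsd17b6. The searched window of Rdh7 nearest its gene span lies within that span over 84 bases, and that of Rdh5 over all 150. Among 32817 promoters of the same length, 7.58% held TATAAA on either strand and 4.85% on the strand of the gene. A match of letters is a description, and the MSM sequence of these windows was not used here. The promoters of Rdh16 and Rdh9, here with the first bases after the start included, aligned with 75.7% identity over 268 columns.

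Rdh16 is a microsomal retinol dehydrogenase of liver. Its B6-allele frequency was 0.985 in MB1, 0.984 in MB2, 0.986 in BM1 and 0.991 in BM2. Every mouse was thus close to the upper end, whichever parent gave the B6 chromosome, and the mean was 0.986 ± 0.0032 (SD, n = 4). Sdr9c7, whose product is known from lipid metabolism of the skin barrier, had frequencies of 0.997 and 1 in the MB mice and 0.9987 and 0.997 in the BM mice. Its mean was 0.998 ± 0.0013 (SD, n = 4). Ordered from the highest mean frequency, Sdr9c7 was 4th and Rdh16 15th of 3632 genes.

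The other 5 members were read from both alleles. BC089597 had the highest frequency among them, at 0.675 and 0.687 in the MB mice and 0.624 and 0.663 in the BM mice (mean 0.662 ± 0.0273, SD, n = 4). Rdh7, a retinol and androgen dehydrogenase, was at 0.584, 0.579, 0.573 and 0.573 in the same order, a mean of 0.577 ± 0.0053. Its values lay above 0.5 in every mouse and were close together.
Rdh5, best known as the cis-retinol dehydrogenase of the retinal pigment epithelium, had frequencies of 0.548, 0.558, 0.517 and 0.556 (mean 0.545 ± 0.0188). Hsd17b6, which acts on androgens such as androstanediol, had 0.502, 0.519, 0.523 and 0.496 (mean 0.510 ± 0.0131), with mice on both sides of 0.5. Rdh9, a close copy of Rdh16, was the member with more MSM than B6 reads. Its frequency was 0.371 and 0.432 in the MB mice and 0.321 and 0.414 in the BM mice (mean 0.385 ± 0.0494).

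Strong allele use therefore did not extend over the cluster. With the thresholds of the study's methods, a mean of at least 0.8 or at most 0.2, 2 of 7 members were B6-biased and 0 were MSM-biased, against 1.84% and 1.35% of all genes with a frequency. Since these frequencies chose the members, nothing is read from that comparison. The means of 3 members (Rdh7, Rdh5 and Hsd17b6) lay between 0.4 and 0.6, as did those of 2868 of 3632 genes. All mice were above 0.5 for 5 members, as for 1230 of 3632 genes. Rdh9 was below 0.5 in all mice, which was not counted over all genes, so nothing is read from it. No member lay near a threshold: over all genes, the mean just inside 0.8 was 0.801 and the mean just outside it 0.798. The median SD of the frequency over the 4 mice was 0.0272 for all genes. The SD of Rdh9 was above that value, while the SD of Rdh16 and Sdr9c7, close to the upper end of the scale, was below it.

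**Figure D1:**
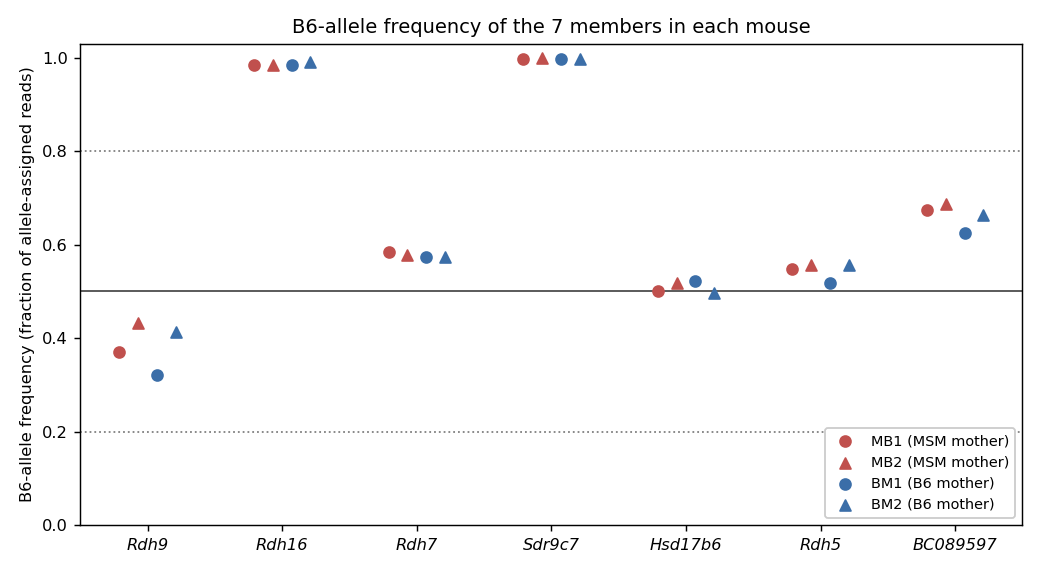
B6-allele frequency (y axis, share of B6 reads among allele-assigned reads) of each member (x axis, the block genes in chromosome order, then Rdh5 and BC089597) in each mouse. Points are single mice, red for an MSM mother and blue for a B6 mother; the solid line is equal use at 0.5 and the dotted lines are the thresholds 0.8 and 0.2. Rdh16 and Sdr9c7 lie at 0.984 or above in every mouse, and Rdh9 at 0.432 or below.

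Changes of allele use occurred over short distances. The end of Rdh9 and the start of Rdh16 are 8.5 kb apart, and within a mouse the frequency of Rdh16 exceeded that of Rdh9 by 0.552 to 0.664. This contrast is uncertain on the side of Rdh9. Of its windows of read length, 61.2% also occur in the overlapping gene model Rdh16f1, and the source of its reads is not known. Rdh7 and Sdr9c7 run in opposite directions with 9.7 kb between their starts, and Sdr9c7 exceeded Rdh7 by 0.413 to 0.425. The next gene, Hsd17b6, lies 79.2 kb further and was below Sdr9c7 by 0.476 to 0.502. In contrast, Rdh7 and Hsd17b6, which flank Sdr9c7, differed from each other by 0.0504 to 0.0827. The 2 genes with near-complete B6 use were thus not adjacent, as Rdh7 lies between them.

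The surrounding region was described with the 52 other measured genes from 500 kb before Rdh9 to 500 kb after Rdh5, each with a frequency. Their mean frequencies ran from 0.385 to 0.690 with a median of 0.510, as in all genes, where the median was also 0.510, and 45 of 52 lay between 0.4 and 0.6 (2868 of 3632 over all genes). None reached 0.8 or 0.2. These genes were not chosen by allele use, so the limma test of the log2 odds of the B6 allele against 0 was applied, with adjustment over all genes. It called 12 neighbors toward B6 and 5 toward MSM and left 35 not called. Over all genes the shares called were 22.6% toward B6 and 13.6% toward MSM. Of 14 genes before the block 4 were called toward B6 and 0 toward MSM, and of 37 after it 8 and 5. The 1 other gene inside the block, the pseudogene Rdh18-ps, had a mean of 0.543 and was not called. The neighbor counts fell whichever mouse was left out. Such a fit has fewer mice to measure the spread, and the cause of the fall was not tested. Without MB1 or MB2, 4 and 6 were called toward B6 and 1 and 2 toward MSM. Without BM1 or BM2, 2 and 1 were called toward B6 and 0 toward MSM.

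Nearest to the block on the Rdh9 side is Rdh1, another retinol dehydrogenase of the same family. Its frequencies were 0.529 and 0.526 in the MB mice and 0.750 and 0.765 in the BM mice. The mean of 0.642 passed the test against equal use, with log2 odds of 0.90 (SE 0.05) and an adjusted p of 0.00448 by limma, while the difference between the crosses, -1.49 in log2 odds, did not pass its own test (adjusted p = 0.272). Of its 150-base windows 9.28% also occur in the gene model Rdh16f1, so the values of Rdh1 are uncertain. That share counts exact matches in the B6 reference, and the coding sequences of Rdh1 and Rdh16f1 are 93.4% identical. It therefore sets no upper limit on the uncertainty. Next on that side, the receptor gene Gpr182 had a mean of 0.517 and the zinc finger gene Zbtb39 a mean of 0.508. On the Hsd17b6 side, Naca (a subunit of the nascent polypeptide-associated complex) was at 0.485, Ptges3 (a co-chaperone) at 0.493 and Atp5b (the beta subunit of ATP synthase) at 0.485. None of these 5 genes was called. The neighbors with the highest mean FPKM were Atp5b, Rpl41 (a ribosomal protein gene) and Mettl7b (a methyltransferase-like gene), at 963, 835 and 446. Rpl41 was not called, with a mean frequency of 0.495. Mettl7b, near Rdh5, passed toward B6 with a mean of 0.637, log2 odds of 0.82 (SE 0.11) and an adjusted p of 0.0164 by limma.

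**Figure D2:**
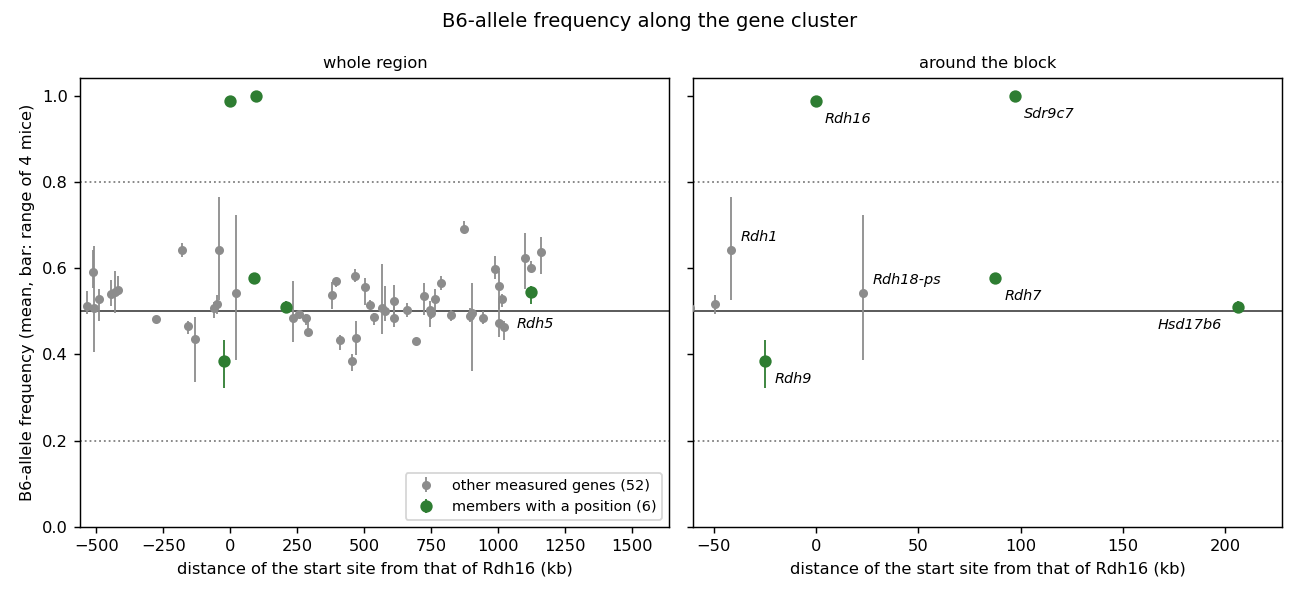
Mean B6-allele frequency (y axis) against the distance of the start site from that of Rdh16 in kb (x axis), for the whole region and around the block. Green points are the 6 members with a position, gray points the 52 other measured genes, and bars run from the lowest to the highest of the 4 mice. Rdh16 and Sdr9c7 stand above 0.8, and every other point lies between 0.385 and 0.690.

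The members differed widely in level. Rdh7 had the highest FPKM, with 975 and 851 in the MB mice and 748 and 824 in the BM mice. The mean was 849.5 ± 94.2 (SD, n = 4), and Rdh7 was 102nd of 8797 genes by level. BC089597 followed at 211, 165, 170 and 183 (mean 182.5 ± 20.3). These 2 members and Hsd17b6 were far above the median gene, which had a mean FPKM of 11.5. Hsd17b6 was at 149, 122, 141 and 156 (mean 142 ± 14.5), without a split between the crosses. Rdh16 was at 34.4 and 33.0 in the MB mice and 20.2 and 22.6 in the BM mice (mean 27.5 ± 7.21), with both MB mice above both BM mice. Rdh9 was at 22.3, 29.7, 19.3 and 26.6 (mean 24.5 ± 4.59), and here replicate 2 of each cross was the higher. Rdh5 and Sdr9c7 were the lowest members, close to the median gene. Rdh5 was at 15.4, 12.3, 11.3 and 11.1 (mean 12.5 ± 1.97). Sdr9c7 was at 10.7, 8.69, 11.5 and 9.998 (mean 10.2 ± 1.20). Rdh16 and Rdh9 overlapped over the mice, with means 1.13 times apart, as did Rdh5 and Sdr9c7, 1.22 times apart. The other neighbors in the order did not overlap. The largest of these steps were Hsd17b6 over Rdh16, 5.16 times, and Rdh7 over BC089597, 4.65 times. Rdh9 was 1.96 times Rdh5, and BC089597 1.28 times Hsd17b6.

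**Figure D3:**
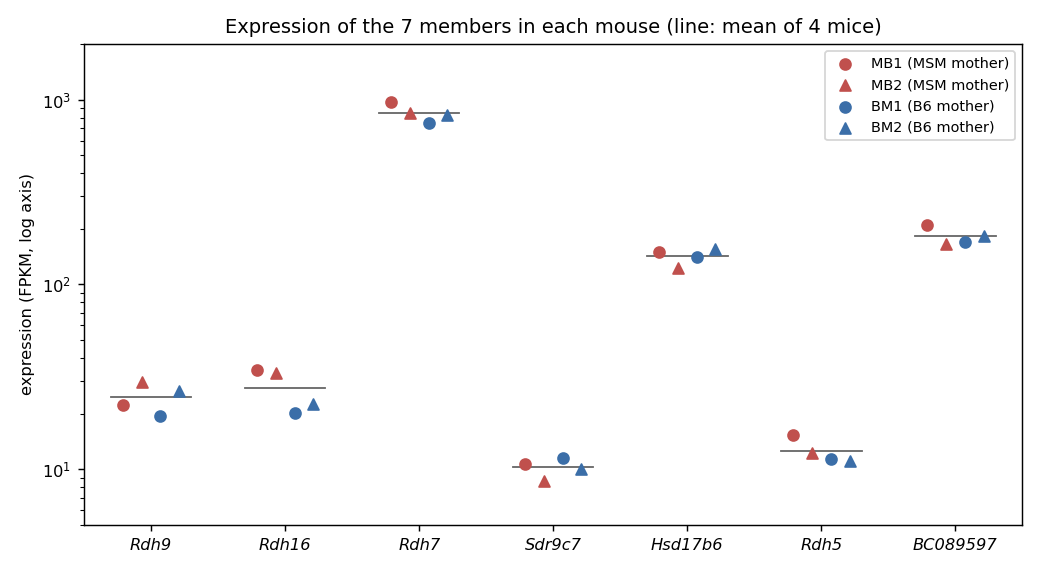
Expression of each member in each mouse (y axis, FPKM on a log axis), with the members as in the plot of allele frequency and a line at the mean of 4 mice. Rdh7 lies at 748 to 975, and Rdh16 is the member whose MB mice, 34.4 and 33.0, stand farthest from the BM mice, 20.2 and 22.6.

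Multiplying the FPKM by the allele share splits each level into a B6 and an MSM part. The split assumes that the reads over SNPs stand for the whole transcript. The MSM part of Rdh16 was 0.513 and 0.527 in the MB mice and 0.290 and 0.199 in the BM mice, against a mean B6 part of 27.2 ± 7.06. For Sdr9c7 the mean MSM part was 0.0179 ± 0.0136 and the B6 part 10.2 ± 1.19, and in MB2 the MSM part was listed at 0. In contrast, Rdh7 had an MSM part of 359 ± 35.5 beside a B6 part of 491 ± 58.8, and Rdh9 had 14.9 ± 1.66 beside 9.59 ± 2.93. Rdh16 and Rdh9 thus had similar total levels but unlike parts, since their B6 parts did not overlap over the mice and neither did their MSM parts. Here too the values of Rdh9 are uncertain, as its transcripts share sequence with the gene model Rdh16f1. Summed over the 7 members, the FPKM was 1418 and 1222 in the MB mice and 1122 and 1233 in the BM mice. Of this sum 58.2% to 59.8% was B6. Rdh7 contributed 66.7% to 69.6% of it, and Rdh16 and Sdr9c7 together 2.64% to 3.41%.

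**Figure D4:**
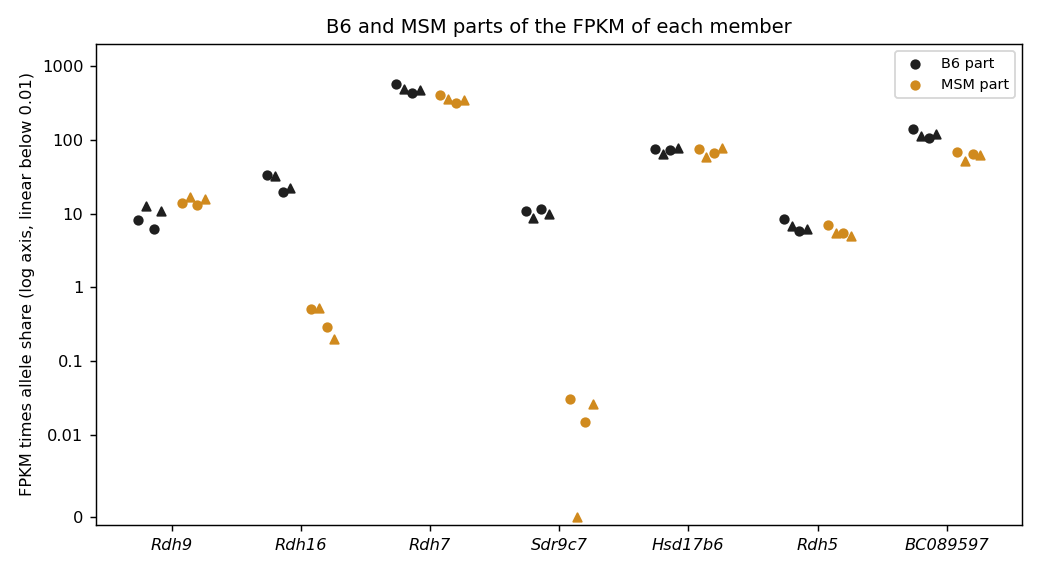
B6 part (black) and MSM part (orange) of the FPKM of each member, 1 point per mouse (y axis, FPKM times allele share, log axis that is linear below 0.01). The MSM part is below 0.6 FPKM for Rdh16 and at most 0.0306 for Sdr9c7, while both parts of the other 5 members lie above 4.

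Reciprocal crosses ask whether the strain of the allele or the parent that passed it on sets a difference. The limma test of allele use between the crosses called 0 of the 6 members it could test, and that of expression 0 of 7. Over all genes the tests called 0.0826% (3 genes) and 0.0455% (4 genes). At an unadjusted p under 0.05 they marked 190 and 780 genes, among them 0 and 1 of the members, the 1 being Rdh16 by expression. The allele use of Rdh16 differed by -0.37 in log2 odds (MB minus BM, SE 0.22, 95% interval -1.04 to 0.31, adjusted p = 0.877 by limma). That of Rdh9 differed by 0.21 (interval -0.62 to 1.05), of BC089597 by 0.24 (-0.15 to 0.63), of Rdh5 by 0.09 (-0.27 to 0.46), of Rdh7 by 0.05 (-0.20 to 0.30) and of Hsd17b6 by 0.00 (-0.32 to 0.33). Sdr9c7 could not be tested this way, since its 4 frequencies all lay past the upper limit of 0.99 set for the test. With frequencies limited only within 0.001 of 0 and 1, its difference was 0.12 (adjusted p = 0.998 by limma). Frequencies did not overlap between the crosses for 3 members, Rdh16, Rdh7 and BC089597, and for 34.3% of all genes.

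In expression Rdh16 had the largest difference of the members. Its mean FPKM was 33.7 in the MB mice and 21.4 in the BM mice, and the crosses did not overlap. On the log2(FPKM + 1) scale this was a difference of 0.63 (SE 0.12, 95% interval 0.33 to 0.94), which did not pass after adjustment (adjusted p = 0.339 by limma). With frequencies this close to 1, nearly all of it must fall in the B6 part, 33.2 against 21.1 FPKM. The MSM part was also higher in the MB mice, 0.513 and 0.527 against 0.290 and 0.199. The pseudogene Rdh18-ps, whose exons overlap those of Rdh16, was likewise higher in the MB mice, at 16.8 and 21.8 FPKM against 10.8 and 12.5. The part of shared reads in this was not tested. Rdh5 differed by 0.27 (-0.07 to 0.61), Rdh7 by 0.21 (-0.23 to 0.66), Rdh9 by 0.18 (-0.34 to 0.69), BC089597 by 0.08 (-0.36 to 0.52), and Sdr9c7 and Hsd17b6 both by -0.14 (-0.49 to 0.21 and -0.55 to 0.28). FPKM of both MB mice lay above both BM mice for 3 members, Rdh16, Rdh7 and Rdh5, and for 23.0% of all genes. The median difference was 0.18 for the members and 0.02 for all genes. Between the same crosses the summed FPKM of hepatocyte markers was 16620 and 15280 in the MB mice and 11780 and 14800 in the BM mice, so that both MB mice were higher, as for Rdh16. That of Kupffer cell markers was 99.8 in the MB mice and 129.5 in the BM mice, and that of red blood cell markers (4 of 5 measured) 218 and 609. In the same order, sinusoidal endothelium markers were at 103.4 and 116.0, stellate cell markers at 48.55 and 46.81 and Spp1 at 12.08 and 12.12. The FPKM summed over all genes also differed, at 671875 in MB1, 539647 in MB2, 529024 in BM1 and 572780 in BM2. The marker sums were not scaled to these totals. The part of the cell types and of the totals in the differences was not tested. In whole liver, fewer cells of a type and less RNA per cell cannot be told apart.

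Copies of a gene can share reads, and the study's alignment kept a single position for each read. The coding sequences of Rdh16 and Rdh9 were 96.3% identical, those of Rdh16 and Rdh7 85.8%, Rdh16 and Hsd17b6 70.3%, Rdh16 and Sdr9c7 62.7% and Rdh16 and Rdh5 61.4%. The share of 150-base windows of the spliced transcripts, the length of a read, that also occurs in another gene of the family was 0% for Sdr9c7 and Rdh5, 0.981% for Rdh7, 5.66% for Hsd17b6 and 4.93% for Rdh16. For Rdh16 most of that share was with Rdh18-ps, a pseudogene whose annotated exons overlap those of Rdh16 on the same strand over 381 bases. For Rdh9 it was 61.2%, all with the gene model Rdh16f1, which shares 2302 exonic bases with Rdh9 on the same strand. The values of Rdh9 are thus uncertain as to which model the reads came from, and those of Rdh18-ps likewise. For Rdh16 the same uncertainty holds over the smaller share of its windows. Counting only genes whose exons do not overlap, which leaves out Rdh16f1 for Rdh9 and Rdh18-ps for Rdh16, 2.24% of Rdh9 and 1.27% of Rdh16 windows were shared. All these shares count exact matches in the B6 reference, so they set no upper limit on misplaced reads.

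Genes whose frequencies were closest to those of Rdh16 over the 4 mice lay on other chromosomes. By Euclidean distance they were Scnn1a (a subunit of the epithelial sodium channel, chromosome 6), H2-K1 (an MHC class I gene, chromosome 17) and Cyp4a14 (a fatty acid hydroxylase, chromosome 4), at distances of 0.00986, 0.0109 and 0.0112. Their mean frequencies were 0.983, 0.991 and 0.992.

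Of the other genes of retinoid metabolism with a frequency, none reached a mean of 0.8. Adh4 came closest, at 0.802 and 0.810 in the MB mice and 0.801 and 0.772 in the BM mice. Its mean of 0.796 was called toward B6 (adjusted p = 0.00219 by limma). The list also holds Rdh1, which is counted among the neighbors too. Of 39 listed non-members 26 were measured and 14 had a frequency, from 0.156 to 0.796, with 5 called toward B6, 3 toward MSM and 6 not called by limma. For this and the next lists, the shares over all genes are again 22.6% toward B6 and 13.6% toward MSM. Those with the highest FPKM were Ttr and Rbp4, which carry retinol in plasma, and Adh1, an alcohol dehydrogenase that also oxidizes retinol, with mean frequencies of 0.569, 0.531 and 0.598. Ttr and Adh1 passed toward B6 (adjusted p = 0.0183 and 0.0107), and Rbp4 did not (0.0572). Past a threshold was Bcmo1, which cleaves beta-carotene. The mean FPKM of Bcmo1 was 3.55, near the lowest mean of all genes, 2.50. Its frequencies were 0.280 and 0.171 in the MB mice and 0.0513 and 0.121 in the BM mice, a mean of 0.156, with log2 odds of -2.68 (SE 0.32, adjusted p = 0.0141).

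Of 24 listed hydroxysteroid dehydrogenases and steroid reductases 17 were measured and 7 had a frequency, from 0.329 to 0.538. None was called toward B6, 3 were called toward MSM and 4 were not called. Hsd11b1, which regenerates active glucocorticoid, had a mean frequency of 0.538 and was not called. Hsd3b7, an enzyme of bile acid synthesis, had 0.431 and was called toward MSM (adjusted p = 0.0163 by limma). Akr1c6, an aldo-keto reductase of steroids, had the highest mean FPKM of the list at 1001 and no frequency. Of 23 other short-chain dehydrogenases 19 were measured and 7 had a frequency, from 0.307 to 0.777, with 4 called toward B6, 2 toward MSM and 1 not called. The most expressed were Pecr, a peroxisomal enoyl-CoA reductase, at 202 FPKM, Dcxr, a xylulose reductase, at 187 and Hpgd, which breaks down prostaglandins, at 94.4. Only Dcxr of these had a frequency, 0.453, and it was called toward MSM (adjusted p = 0.0238). No gene of the lists was called by either test between the crosses. Many of these list calls were lost when a mouse was left out. Such a fit has fewer mice to measure the spread, and the cause of the loss was not tested. Without BM1 or BM2, the short-chain dehydrogenases called fell to 1 toward B6 and 0 toward MSM and the hydroxysteroid genes called toward MSM to 1. The latter count was also 1 without MB1. Retinoid genes called toward B6 numbered 1 without BM2 and 2 without each of the other mice in turn, and those toward MSM numbered 1 without each mouse in turn.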

How the data were processed

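Liver mRNA of 4 F1 mice was sequenced as strand-specific polyA libraries, and each mouse was assigned to its cross from the labels. The deposited tables hold the FPKM of each gene and its B6-allele frequency, a fraction that the authors took as B6 reads over the reads of both alleles. Per the study's methods and the submitters' processing notes, Trim Galore! was used for trimming, Tophat2 for alignment (at most 1 position per read) to an mm10 genome with SNP sites masked, SNPsplit for separating alleles and Cuffdiff for counting. Tool versions are not given in the sources used here.

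Members were matched by gene name. The members, lists and motif were chosen with earlier results of these data known. Named genes are all members, the 3 genes with a frequency nearest each end of the block, the genes of the region and of each pathway list past 0.8 or 0.2 (in every mouse for the region, in the mean for a list), called between the crosses or among the 3 with the highest mean FPKM, and the 3 genes nearest to Rdh16 in frequency. Rdh18-ps, Rdh16f1, Hsd17b7 and Adh4 were named after their values were seen. Positions came from GENCODE for the mm10 assembly and promoters from RefSeq (GRCm38.p6).

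Tests used limma 3.58.1 in R 4.3.3, with 1 model over all genes and a cross term. Allele use was modeled as log2 odds, with frequencies held within 0.01 and 0.99. Expression was tested on log2(FPKM + 1) with a variance trend, where the mean FPKM was at least 1, and this scale understates changes of low genes. P-values were two-sided and adjusted by Benjamini-Hochberg at 0.05. An exact permutation test of 2 against 2 mice cannot give a p below 0.333 and was not used. The scripts were tested on simulated data. For the tests between the crosses, the planted differences were larger than any reported here. For the test of allele use, they were larger than every call named here except that of Bcmo1. Whether smaller ones would be found was not measured. Calculations used Python 3.11.15 with pandas 2.3.3, Biopython 1.88 and matplotlib 3.10.9. Other thresholds, limits, filters, pseudocounts and normalizations, a replicate block and leaving out each mouse were tried.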

Additional observations from a re-analysis of the deposited data

Results flagged for a closer look

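At 2 genes that are no members, both mice of 1 cross lay on the opposite side of 0.5 from both mice of the other. Rdh18-ps, the pseudogene whose exons overlap those of Rdh16, had frequencies of 0.387 and 0.426 in the MB mice and 0.635 and 0.724 in the BM mice, a difference of -0.273. Its FPKM was 16.8, 21.8, 10.8 and 12.5 in the same order, higher in both MB mice. The difference of 0.68 on the log2(FPKM + 1) scale did not pass (adjusted p = 0.397 by limma). It passed with a replicate block (adjusted p = 0.00835 by limma), a setting that raised such calls over all genes from 4 to 285. No source says that equal replicate numbers share a litter or day, and the expression deviations of such mice correlated with r of 0.004. Nothing is read from that pass. By limma the log2 odds of Rdh18-ps differed by -1.64 (SE 0.26), which did not pass over all genes (adjusted p = 0.758). Of the 150-base windows of Rdh18-ps, 25.9% occur in another gene of the family. Hsd17b7, an enzyme of cholesterol synthesis from the hydroxysteroid list, had frequencies of 0.556 and 0.603 in the MB mice and 0.463 and 0.467 in the BM mice, a difference of 0.114 (log2 odds difference 0.66, adjusted p = 0.829 by limma).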

How the results depend on the processing

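The members at or above 0.8 stayed at 2, Rdh16 and Sdr9c7, and those at or below 0.2 at 0, with the median over mice, with thresholds of 0.9 and 0.1, with every mouse past the threshold, and without each mouse. The members were chosen with these frequencies known, and the lowest single value of these 2 genes was 0.984. Such settings could hardly change the counts, so nothing is read from their staying the same. The test of allele use between the crosses called no member under any alternative, though Sdr9c7 could be called only with the wider limits or on the frequency scale. Numbers of calls elsewhere did change, and the cause was not tested. With each mouse left out in turn, neighbors called numbered 1 to 6 toward B6 and 0 to 2 toward MSM, retinoid genes 1 to 2 toward B6 and 1 toward MSM, hydroxysteroid genes 0 toward B6 and 1 to 2 toward MSM and other short-chain dehydrogenases 1 to 4 toward B6 and 0 to 1 toward MSM. Over all genes, 0 to 6 were then called for allele use between the crosses and 13 to 21 for expression. In these fits the lone mouse of a cross is assumed to vary like the other cross. Without MB1 6 genes were called for allele use between the crosses, and without MB2 and without BM2 0 were. On the frequency scale, and likewise after removal of genes under a mean FPKM of 5, 1 hydroxysteroid gene was called toward B6 in place of 0. With frequencies limited only within 0.001 of 0 and 1, 1 gene was called for allele use between the crosses.

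Mice of the 2 crosses share replicate numbers, but no source says that equal numbers share a litter or day. Deviations from the cross means correlated with r of 0.004 for log2(FPKM + 1) over 8797 genes and 0.146 for log2 odds over 3632 genes, which are not independent. With the replicate block, neighbors called toward MSM numbered 2, retinoid genes toward B6 3 and other short-chain dehydrogenases toward MSM 1. Expression calls between the crosses rose to 285, among them 1 member, Rdh16 (difference 0.63, adjusted p = 0.0443 by limma), and the pseudogene Rdh18-ps (0.68, adjusted p = 0.00835).

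Differences between the crosses that were not called changed sign in places. With quantile normalization BC089597 was at -0.05 in expression. With each mouse left out, the expression difference ran from -0.04 to 0.40 for Rdh9, -0.28 to 0.01 for Hsd17b6 and -0.10 to 0.25 for BC089597, and the difference in log2 odds from -0.08 to 0.50 for Rdh9 and -0.02 to 0.21 for Rdh5. The unknown read depth limits what a frequency near 1, such as those of Rdh16 and Sdr9c7, can show about the MSM allele.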
